A study of Mus musculus with 16 samples.

Results

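Expression of 9 collagen genes was followed in intervertebral discs of the mouse tail: Col4a1 and Col4a2 of type IV collagen, Col6a1, Col6a2 and Col6a3 of type VI, Col8a1 and Col8a2 of type VIII, and the multiplexins Col15a1 and Col18a1. The genes were taken by symbol, without regard to their levels, and all 9 were present among the 49315 genes of the expression table. Bulk RNA sequencing covered 16 mice, and the tissue of 4 tail discs was pooled within each mouse, so a library stands for 1 animal. Mice labelled with the Adam8EQ genotype (mutant) were set against wild-type mice, and discs were labelled injured or intact: 3 wild-type intact, 4 wild-type injured, 4 mutant intact and 5 mutant injured mice. Adam8 encodes a membrane-anchored metalloprotease. The labels say no more about the EQ allele and give neither the kind of injury nor the time after it, the age or the sex, and the series title names DBA, an inbred strain. Mutant libraries carried name prefixes of 2 kinds, A8 and M, in both the injured and the intact group, and all wild-type libraries the prefix D. What the prefixes stand for is not given in the sources used here, so prefix and genotype cannot be told apart.

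Type IV collagen forms the network of basement membranes, the thin sheets beneath endothelium and around muscle, fat and nerve cells. Type VI collagen forms beaded filaments and is the characteristic collagen of the pericellular matrix, the shell that joins each disc or cartilage cell to the bulk matrix around it. Type VIII is a short-chain collagen of vessel walls and of the membrane under the corneal endothelium, and types XV and XVIII are basement membrane proteoglycans whose C-terminal fragments, endostatin in the case of type XVIII, act on blood vessels.

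Levels are given as TPM (a measure of transcript abundance, with reads scaled by gene length and library total), and changes as differences of mean log2(TPM + 1) ± SE, a scale that understates the change of low genes. Between 10220111 and 24881445 reads per library (median 13315172) lay behind these values, as worked out from the steps between low TPM values. Each member was well covered: the implied reads per library ran from 108 to 1976 for Col18a1 and from 14826 to 147241 for Col6a3. All 9 members passed the filter of at least 1 TPM in at least 3 libraries, as did 24188 genes in all. Genes defining disc and cartilage (Acan, Col2a1, Sox9, Comp and Cnmd) were present in every library, with a summed level of 3963 to 18550 TPM. The lowest sums were those of mutant injured mouse 2 (3963 TPM) and wild-type injured mouse 3 (5231 TPM), against at least 9002 TPM elsewhere. In injured against intact mutants 2 of these 5 genes were called downward and none upward, where 17.7% of all tested genes were called downward. Markers of nucleus pulposus and notochord summed to 2523 to 4163 TPM in intact and 30.9 to 2425 TPM in injured mutants, and markers of the annulus fibrosus to 3478 to 4024 and 1516 to 2831 TPM. Macrophage markers summed to 128 to 194 TPM in intact and 665 to 6988 TPM in injured mutants. Wild-type injured mice 1 and 2 stood apart from the other injured mice: on the first principal component of all tested genes they lay at -42.6 and -23.2, near the intact mice (-66.9 to -40.2), while wild-type injured mice 3 and 4 lay at 84.9 and 41.8 and injured mutants at 39.6 to 97.8. Their macrophage sums were 212 and 347 TPM, against 3370 and 2168 TPM in mice 3 and 4. In these bulk samples fewer cells of a type and less RNA per cell cannot be told apart.

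In the 7 intact discs the type VI chains led. Col6a1 had a median of 1753 TPM (1477 to 2515) and was the gene of rank 40 by mean level in the table, followed by Col6a2 at 819 TPM (673 to 1190), Col6a3 at 562 TPM (466 to 750) and Col15a1 at 353 TPM (285 to 507). A lower tier held Col8a2 at 60.2 TPM (49.3 to 73.4), Col4a2 at 57.1 TPM (44.2 to 72.1) and Col4a1 at 21.7 TPM (17.7 to 27.8). Col18a1 at 9.76 TPM (6.22 to 12.6) and Col8a1 at 8.43 TPM (4.92 to 22.3) were lowest. Ranges overlapped across mice for Col6a2 with Col6a3 and for Col6a3 with Col15a1, but within each of the 7 intact libraries Col6a2 was above Col6a3 and Col6a3 above Col15a1. The order was not set for Col8a2 and Col4a2 (Col8a2 higher in 5 of 7) or for Col18a1 and Col8a1 (Col18a1 higher in 3 of 7). The level of Col6a2 also depends on the length used. The union of its annotated exons is 8326 bases and its longest coding transcript 4653 bases. With transcript length the mean log2 ratio of Col6a2 to Col6a1 was -0.34 in intact wild-type and -0.32 in intact mutant mice. Col6a1 thus stayed the higher of the pair.

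Injury in mutant discs was accompanied by a fall of Col8a2 and a rise of Col6a3, and Col8a2 was also lower in injured mutant than in injured wild-type discs. These were the calls among the 9 genes in the 4 comparisons between groups (limma on log2(TPM + 1), Benjamini-Hochberg adjustment over all tested genes, threshold 0.05). In injured against intact mutants 2 of 9 members passed, 1 up and 1 down, while 30.8% of all tested genes passed, 13.1% upward and 17.7% downward. In injured against intact wild-type discs none of the 9 passed, nor by limma voom on the implied reads, against 0.116% of all tested genes; at an unadjusted p under 0.05 the count was 6 of 9, against 17.2% of all tested genes. Between genotypes none of the 9 passed in intact discs by either tool (0 at an unadjusted p under 0.05, against 3.78% of all genes; 0.0165% of all genes passed), and 1 of 9 passed in injured discs, downward (0.918% of all genes passed in either direction and 0.728% downward). For the genotype difference in the injury effect 0 of 9 members passed by either tool, and 0% of all tested genes passed; 1 of 9 had an unadjusted p under 0.05, close to the 8.18% of all genes.

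**Figure D1:**
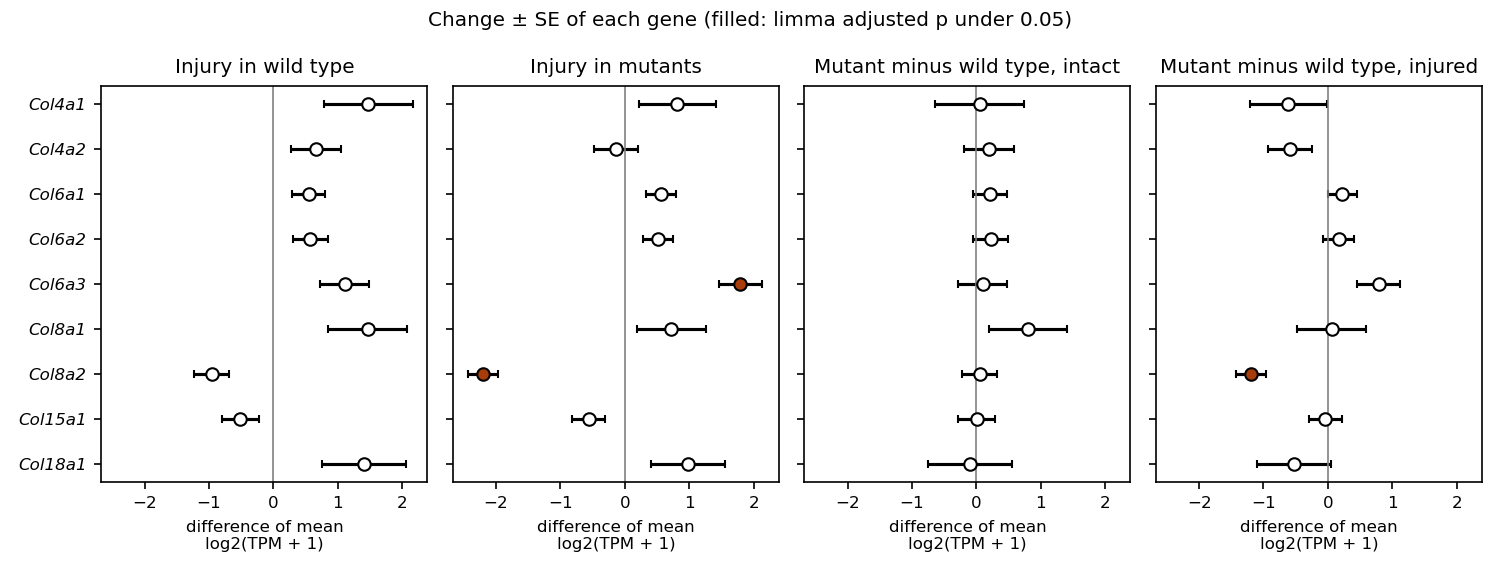
Change of each gene in 4 comparisons: x axis, difference of mean log2(TPM + 1); points, estimates; bars, ± SE; filled points passed the limma threshold of 0.05 after adjustment. Col8a2 lies farthest to the left in injured mutants (-2.20 ± 0.24) and Col6a3 farthest to the right there (1.80 ± 0.33), while the intact genotype panel holds no filled point.

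A second reading, by whether the ranges of the groups were apart, gave 4 of 9 members in wild-type injury (15.6% of all tested genes), 2 of 9 in mutant injury (27.2%), 0 of 9 between genotypes in intact discs (6.18%) and 1 of 9 between genotypes in injured discs (4.77%). The 4 in wild-type injury were Col6a1, Col6a2 and Col6a3, higher in every injured mouse, and Col8a2, lower in every injured mouse. The median change of the 9 members was 0.66 in wild-type injury and 0.56 in mutant injury, where the medians over all tested genes were 0.01 and -0.08. Injury in the 2 genotypes was measured against separate intact groups. The genotype and injury comparisons share libraries, so their values are not independent of each other.

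**Figure D2:**
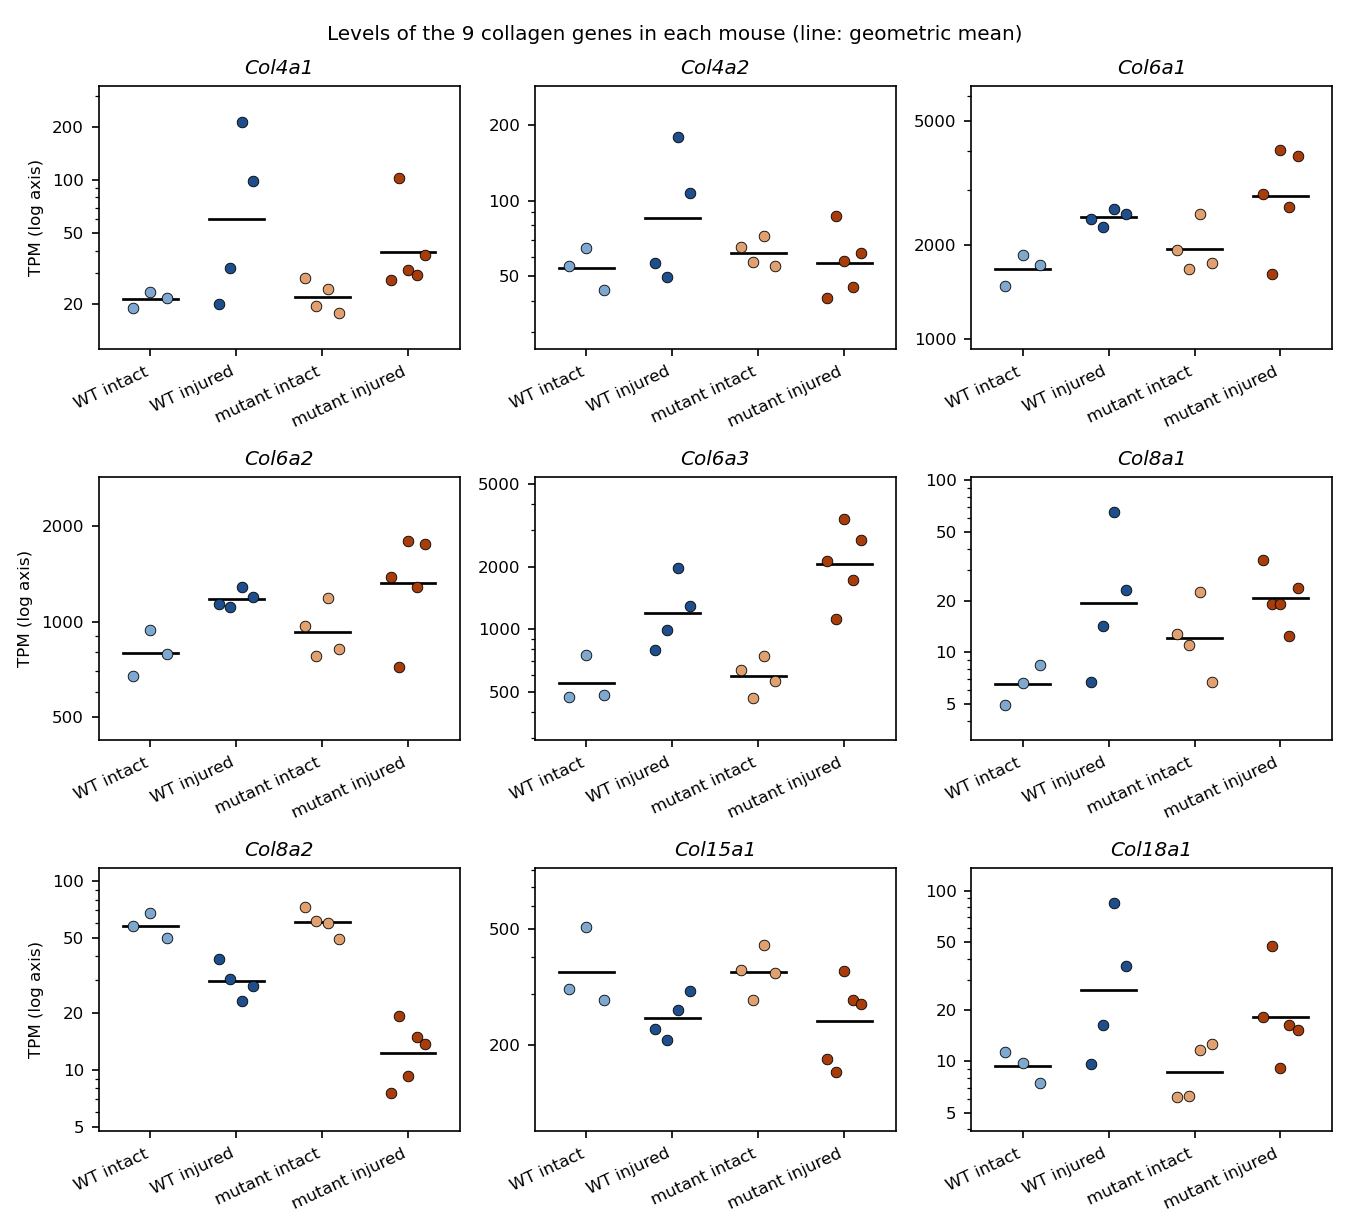
TPM of each gene in each of the 16 mice on log axes, by group; the line is the geometric mean. Col8a2 separates the intact mice (49.3 to 73.4 TPM) from injured wild-type (23.4 to 38.5 TPM) and injured mutant mice (7.57 to 19.3 TPM), whereas single injured mice stand far above the rest for Col4a1, Col4a2, Col8a1 and Col18a1.

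Col8a2 encodes a chain of the short type VIII collagen, which assembles into hexagonal lattices. It lies on chr4:126286793-126314330, plus strand (GRCm38; ENSMUSG00000056174). In intact discs it measured 58.2, 67.5 and 50.2 TPM in wild-type mice and 73.4, 61.4, 60.2 and 49.3 TPM in mutants. Injured wild-type mice had 38.5, 30.4, 23.4 and 27.9 TPM. Injured mutants had 7.57, 19.3, 9.27, 15.0 and 13.8 TPM. The 3 levels (intact, injured wild type, injured mutant) did not overlap in any mouse, and the intact groups of both genotypes overlapped.

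The fall of Col8a2 in injured mutants was 4.61-fold, a log2 change of -2.20 ± 0.24 (95% confidence interval -2.68 to -1.73; limma adjusted p = 0.000117), and the gene had rank 13 by p among all tested genes. It passed in all 29 alternative settings, with changes between -2.38 and -2.04, and within mutants of prefix A8 (-2.37) and of prefix M (-2.04). In wild-type discs the change was -0.95 ± 0.27 and did not pass (limma adjusted p = 0.132). Macrophage, nucleus pulposus and annulus markers moved in the injured mutants as given above, with 5 of 7 called upward, 3 of 4 called downward and 4 of 5 called downward. In wild-type discs the nucleus pulposus markers summed to 3780 to 4886 TPM when intact and 1079 to 3854 TPM when injured (0 of 4 called, median change -1.42). The annulus markers summed to 3079 to 4142 and 4003 to 6838 TPM, where 2 of 5 were higher, none was called and the median change was -0.30; Col1a1 made up 6014 of the 6838 TPM in the highest mouse. The part of these cells in the level of Col8a2 was not tested.

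Between injured mice Col8a2 was 2.29-fold lower in mutants, a log2 difference of -1.19 ± 0.24 (limma adjusted p = 0.03; rank 65). Wild-type injured mice 1 and 2, which lay near the intact mice, had the highest levels of the injured mice (38.5 and 30.4 TPM). The call depended on single mice: the adjusted p was 0.124, 0.118 and 0.0612 without wild-type injured mouse 1, 2 or 4, and 0.0529, 0.0829 and 0.0577 without mutant injured mouse 1, 3 or 5. It was 0.216 in a fit of the 2 injured groups alone, and over all 29 alternatives it ran from 0.00661 to 0.216 while the difference ran from -1.35 to -1.04. The genotype difference in the injury effect was -1.25 ± 0.36 (95% confidence interval -1.97 to -0.53), with an unadjusted p of 0.00215 and an adjusted p of 0.488 in limma. In intact discs Col8a2 showed no call between genotypes, with overlapping ranges.

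Col8a1, which encodes the other chain of type VIII collagen, had the reverse sign. It lies on chr16:57624258-57754737, minus strand (ENSMUSG00000068196). Intact wild-type discs had 4.92, 6.64 and 8.43 TPM and intact mutants 12.8, 11, 22.3 and 6.73 TPM. Injured wild-type discs had 6.71, 14.2, 65.3 and 22.9 TPM and injured mutants 34.6, 19.1, 19.0, 12.5 and 23.8 TPM. The groups overlapped in both genotypes, and wild-type injured mouse 3 stood highest. The injury change was 1.46 ± 0.61 in wild-type discs (limma adjusted p = 0.222) and 0.72 ± 0.54 in mutants (0.284), and the difference between intact genotypes was 0.80 ± 0.61 (adjusted p = 1). None of these passed. Without wild-type injured mouse 3, mutant intact mouse 4 and mutant intact mouse 3 in turn, these values were 0.91, 0.47 and 0.53.

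The balance between the type VIII chains is given as values without a test. Col8a2 over Col8a1 in TPM was 5.96 to 11.8 in intact wild-type and 2.69 to 7.32 in intact mutant mice. It was 0.357 to 5.74 in injured wild-type and 0.219 to 1.21 in injured mutant mice. The ranges of intact and injured mice did not overlap in either genotype. With the length of the longest coding transcript in place of the exon union, each log2 ratio would be lower by a fixed amount, with a shift of -0.56. Across the 16 libraries the correlation of Col8a1 with Col8a2 on the log2 scale was -0.59, and -0.46 after removal of group means; the points share the groups and libraries, and no p is given.

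Bases upstream of both type VIII genes are shown because the changes of the 2 chains had opposite signs in the same discs. The sequences are RefSeq promoters of GRCm38.p6, 5′ to 3′ on the strand of the gene, and end at the base before the annotated transcript. Capitals mark the GC box GGGCGG or its reverse complement, on either strand and with overlaps counted. The windows hold 4 GC boxes each, and 35.7% of 32851 RefSeq promoter windows of the same 300 bases (250 before to 50 after the start) hold at least 1. The share of windows that hold 4 was not counted. The windows were 71.7% G and C for Col8a2 and 60.3% for Col8a1.
Col8a2, chr4:126286544-126286792, plus strand: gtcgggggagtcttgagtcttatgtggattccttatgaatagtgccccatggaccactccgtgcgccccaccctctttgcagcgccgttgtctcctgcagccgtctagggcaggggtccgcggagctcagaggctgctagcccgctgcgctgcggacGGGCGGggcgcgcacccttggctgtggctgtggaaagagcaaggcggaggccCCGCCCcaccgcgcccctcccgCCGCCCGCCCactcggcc
Col8a1, chr16:57754738-57754987, minus strand: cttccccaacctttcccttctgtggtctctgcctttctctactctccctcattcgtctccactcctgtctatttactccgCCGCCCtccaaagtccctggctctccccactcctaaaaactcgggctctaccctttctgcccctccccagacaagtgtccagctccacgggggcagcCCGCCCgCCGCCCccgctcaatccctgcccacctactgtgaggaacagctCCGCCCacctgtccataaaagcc
The other motifs searched, on both strands, were the CCAAT box, the TATA box written TATAAA, the AP-1 site written TGANTCA and a SOX motif written AACAAT. Neither window held any of them, which says only that these letters are not there. Among all promoter windows 37.4% hold the CCAAT box, 13.6% the TATA box, 7.81% the AP-1 site and 10.7% the SOX motif.

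Type VI collagen is built from heterotrimers of the Col6a1, Col6a2 and Col6a3 chains. The genes Col6a1 (chr10:76708792-76726168, minus strand; ENSMUSG00000001119) and Col6a2 (chr10:76595762-76623630, minus strand; ENSMUSG00000020241) are neighbours, and Col6a3 (chr1:90765923-90843971, minus strand; ENSMUSG00000048126) encodes the largest chain. Col6a3 measured 471, 750 and 481 TPM in intact wild-type and 639, 466, 743 and 562 TPM in intact mutant discs. Injured wild-type discs had 797, 995, 1982 and 1300 TPM. Injured mutant discs had 2124, 1124, 3384, 1729 and 2677 TPM. Every injured mouse was above every intact mouse of its genotype, and the injured groups of the 2 genotypes overlapped.

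Col6a3 rose 3.47-fold in injured mutants, with a log2 change of 1.80 ± 0.33 (95% confidence interval 1.13 to 2.46; limma adjusted p = 0.00141; rank 726). The change was 1.11 ± 0.38 in wild-type discs and did not pass (adjusted p = 0.172). It kept its call in mutants in 28 of 29 alternative settings, with changes of 1.5 to 2.01; the exception was the fit with mutants of prefix A8 only (1.5, adjusted p = 0.0519; range over the alternatives 0.000157 to 0.0519), and with prefix M only the change was 1.95. The difference between injured genotypes was 0.79 ± 0.33 (limma adjusted p = 0.179), and that between the injury effects 0.69 ± 0.51 (0.741), neither past the threshold. Fibroblast markers summed to 188 to 236 TPM in intact and 175 to 340 TPM in injured mutants, with 3 of 5 called upward (13.1% of all tested genes). Ly6a was the largest part of these sums by group mean (177.5 and 202.5 TPM). Group means went from 26.5 to 69.2 TPM for Pdgfra, 2.74 to 13.6 for Cd34, 0.914 to 10.45 for Pi16 and 0.139 to 1.01 for Dpp4. Macrophage markers were higher as given above (5 of 7 called upward). The part of these cells in the rise of Col6a3 was not tested.

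Col6a1 and Col6a2 were higher in injured wild-type mice without overlap, but less so than Col6a3. Col6a1 measured 1477, 1858 and 1719 TPM in intact wild-type discs and 2412, 2282, 2596 and 2514 TPM in injured ones. Col6a2 measured 673, 937 and 790.0 TPM in intact wild-type discs and 1133, 1110, 1283 and 1192 TPM in injured ones. The changes were 0.55 ± 0.26 for Col6a1 and 0.57 ± 0.27 for Col6a2 (limma adjusted p = 0.323 and 0.288).

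In mutants the levels of the same pair of chains overlapped between intact and injured mice, through 1 library. Col6a1 measured 1925, 1668, 2515 and 1753 TPM in intact mutants and 2909, 1612, 4034, 2651 and 3844 TPM in injured mutants. Col6a2 measured 971, 779, 1190 and 819 TPM in intact mutants and 1381, 719, 1793, 1286 and 1763 TPM in injured mutants. Mutant injured mouse 2 lay below all intact mutants for both genes, and the other 4 injured mutants lay above all intact ones. The changes over all mutants were 0.56 ± 0.23 for Col6a1 and 0.51 ± 0.24 for Col6a2 (limma adjusted p = 0.0931 and 0.108). Without mutant injured mouse 2 they were 0.77 and 0.73 and passed (adjusted p = 0.0104 and 0.00706), so that 4 of 9 members were called in place of 2; over all alternatives the adjusted p ran from 0.0104 to 0.57 for Col6a1 and from 0.00706 to 0.684 for Col6a2.

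The ratio of Col6a2 to Col6a1 varied least of the 5 chain ratios examined. It lay between 0.445 and 0.504 in all 16 mice, in intact and injured discs of both genotypes, and the 2 genes had a correlation of 0.99 across the libraries. Col6a3 over Col6a1 was 0.28 to 0.404 in intact wild-type and 0.28 to 0.332 in intact mutant mice. It was 0.331 to 0.763 in injured wild-type and 0.652 to 0.839 in injured mutant mice, so that the injured mutants lay above all intact mutants and the wild-type groups overlapped. These ratios were not tested. Dividing by transcript length would shift the log2 ratio of Col6a2 to Col6a1 by 0.74 in every library alike.

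**Figure D3:**
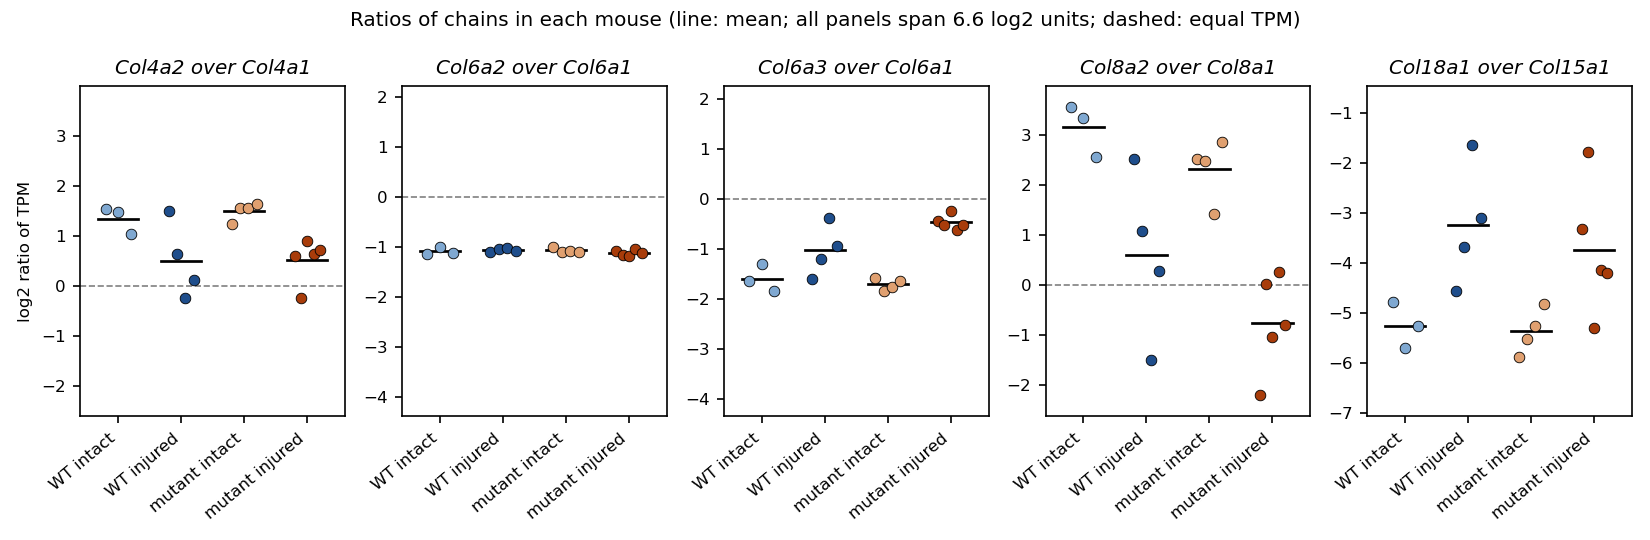
Log2 ratios of TPM within each collagen family in each mouse; the line is the group mean, the dashed line equal TPM, and all panels span the same height. Col6a2 over Col6a1 is flat across groups, Col6a3 over Col6a1 has a mean of -1.71 in intact and -0.47 in injured mutants, and Col8a2 over Col8a1 goes from 2.33 to -0.74 in mutants.

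Upstream bases of Col6a3, the type VI chain that passed in injured mutants, and of its partner Col6a1 are shown for comparison. Both come from the same RefSeq table. The run of Col6a1 is shortened to bases outside annotated exons.
Col6a3, chr1:90843972-90844221, minus strand: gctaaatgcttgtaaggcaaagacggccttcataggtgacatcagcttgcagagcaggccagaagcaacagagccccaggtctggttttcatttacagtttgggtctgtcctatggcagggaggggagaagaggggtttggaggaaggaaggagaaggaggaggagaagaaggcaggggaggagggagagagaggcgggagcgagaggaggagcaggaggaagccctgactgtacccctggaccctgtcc
Col6a1, chr10:76726169-76726294, minus strand: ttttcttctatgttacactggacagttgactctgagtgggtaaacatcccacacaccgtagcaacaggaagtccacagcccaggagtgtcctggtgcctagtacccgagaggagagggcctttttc
The 300-base window of Col6a3 held none of the 5 motifs, and that of Col6a1 held 1 AP-1 site, outside the run shown. The window of Col15a1 also held none.

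Col4a1 and Col4a2 encode the chains of the most widespread type IV collagen trimer and are transcribed away from each other from a shared promoter. Col4a1 lies on chr8:11198423-11312826, minus strand (ENSMUSG00000031502), and Col4a2 on chr8:11312805-11449287, plus strand (ENSMUSG00000031503). Their RefSeq start sites are 21 bases apart and their annotated exons share 22 bases on opposite strands. Whether the counting used strand is not given in the sources used here, so reads in those bases cannot be told apart. Because both windows lie wholly in annotated exons, only motif matches are shown, with 10 bases on either side and the motif in capitals. Of the 3 GC boxes in the Col4a2 window the one that the Col4a1 window shares is shown.
Col4a1 CCAAT box, chr8:11312957-11312981, minus strand: cttgcccgggATTGGcgagccaagg
Col4a2 CCAAT box, chr8:11312763-11312787, plus strand: gaggagctccCCAATttgttggcgc
Col4a1 GC box, chr8:11312802-11312827, minus strand: cttggagacgCCGCCCgcgcactgcc
Col4a2 GC box, chr8:11312802-11312827, plus strand: ggcagtgcgcGGGCGGcgtctccaag
The last pair is 1 genomic GC box read from both strands, between the start sites. The windows were 74% G and C for Col4a1 and 73.7% for Col4a2.

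The highest levels of both type IV genes came from a few injured mice. Col4a1 measured 18.9, 23.3 and 21.7 TPM in intact wild-type and 27.8, 19.5, 24.4 and 17.7 TPM in intact mutant discs. Injured wild-type mice had 19.9, 31.8, 213 and 98.6 TPM, and injured mutants 27.1, 103, 30.8, 28.9 and 37.9 TPM. The groups overlapped in both genotypes, through wild-type injured mouse 1 and mutant injured mouse 1. Every other injured mouse was above all intact mice of its genotype for Col4a1. Col4a2 measured 54.8, 64.9 and 44.2 TPM in intact wild-type and 65.5, 57.1, 72.1 and 55.1 TPM in intact mutant discs. Injured wild-type mice had 56.5, 49.6, 179 and 108 TPM, and injured mutants 41.0, 86.7, 57.6, 45.2 and 62.0 TPM. For both genes the 3 highest libraries were wild-type injured mice 3 and 4 and mutant injured mouse 2, and no intact mouse reached them.

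No change of a type IV chain passed the test. The wild-type injury change was 1.48 ± 0.69 for Col4a1 and 0.66 ± 0.39 for Col4a2 (limma adjusted p = 0.255 and 0.347). In mutants it was 0.81 ± 0.60 and -0.13 ± 0.34 (adjusted p = 0.279 and 0.777). Without wild-type injured mouse 3 the wild-type change was 0.88 for Col4a1 and 0.31 for Col4a2. Without mutant injured mouse 2 the mutant change of Col4a1 was 0.47. Over all mice the differences between injured genotypes were -0.61 ± 0.60 for Col4a1 and -0.59 ± 0.34 for Col4a2 (adjusted p = 0.556 and 0.298), and the difference between injury effects was -0.79 ± 0.52 for Col4a2 (0.687). Without wild-type injured mouse 3 these were -0.01, -0.24 and -0.44, and the Col4a1 difference was -1.13, -0.38 and -0.95 without wild-type injured mouse 1, wild-type injured mouse 4 and mutant injured mouse 2. The correlation of the 2 genes across the 16 libraries was 0.86, and 0.93 after removal of group means, as a description of libraries that share groups.

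Col4a2 exceeded Col4a1 in TPM in every intact mouse, by a ratio of 2.04 to 2.91 in wild-type and 2.35 to 3.12 in mutant discs. The ratio was 0.842 to 2.84 in injured wild-type and 0.843 to 1.87 in injured mutant mice. Injured and intact mutants did not overlap in this ratio, which was not tested. The libraries with ratios under 1 were wild-type injured mouse 3 and mutant injured mouse 2, both among the 3 highest for Col4a1.

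Endothelial markers were set beside these genes in each library. The sum of 10 markers (Pecam1, Cdh5, Kdr, Tek, Tie1, Emcn, Cldn5, Egfl7, Esam and Vwf) was 12.3 to 33.9 TPM in intact wild-type and 10.9 to 20.8 TPM in intact mutant discs. It was 14.8, 24.1, 262 and 89.5 TPM in the 4 injured wild-type mice and 21.4, 92.0, 17.8, 32.7 and 45.2 TPM in the 5 injured mutants. The 3 libraries highest in this sum were the 3 highest for Col4a1, Col4a2 and Col18a1. Outside these 3 libraries the sum and the type IV genes did not always go together. Mutant injured mouse 4 lay above all intact mutants in the sum (32.7 TPM) but below all of them for Col4a2 (45.2 TPM). Wild-type intact mouse 1 had the highest sum of the intact mice (33.9 TPM) and the lowest Col4a1 of the intact wild-type mice (18.9 TPM). None of the 10 markers passed in any comparison by limma or by voom, although 10 of 10 were higher in injured wild-type and 9 of 10 in injured mutant discs, with 1 and 3 at an unadjusted p under 0.05 (17.2% and 42% of all tested genes). Pericyte and smooth muscle markers were also highest in wild-type injured mouse 3, at 652 TPM against 46.1 to 213 TPM elsewhere. Adipocyte markers were highest in that mouse too, at 34.2 TPM, with 21.6 TPM in wild-type intact mouse 1. Skeletal muscle markers summed to 189 to 764 TPM in intact wild-type and 114 to 142 TPM in intact mutant discs. In injured discs they summed to 81.9 to 211 TPM in wild-type and 23.2 to 584 TPM in mutant mice. Schwann cell markers were highest in mutant injured mouse 1, at 339 TPM. The part of vessel, fat, muscle or nerve cells in the collagen levels was not tested.

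**Figure D4:**
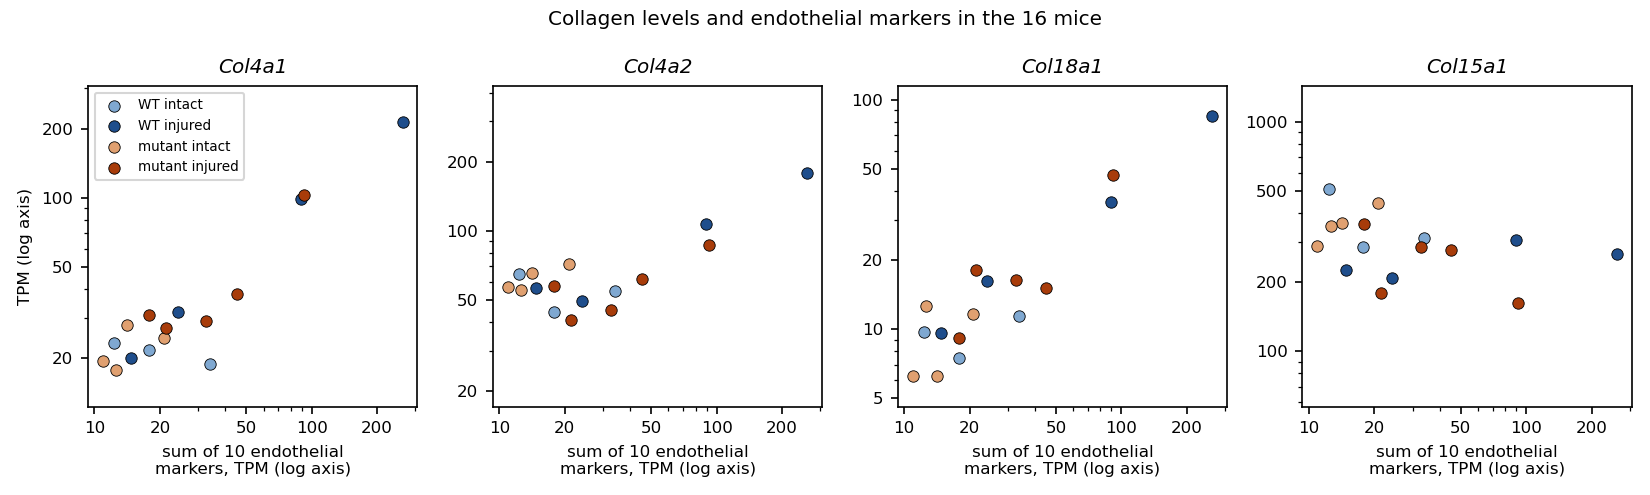
TPM of Col4a1, Col4a2, Col18a1 and Col15a1 against the sum of 10 endothelial markers in each of the 16 mice, both axes logarithmic, coloured by group. The 3 mice with sums of 89.5, 92.0 and 262 TPM are the highest for the first 3 genes, and they measured 306, 162 and 264 TPM for Col15a1, the lowest of which was the lowest of all 16 mice.

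Col18a1, whose product carries endostatin at its C-terminus, followed the pattern of Col4a1. It lies on chr10:77052178-77166548, minus strand (ENSMUSG00000001435). Intact wild-type discs had 11.4, 9.76 and 7.46 TPM and intact mutants 6.22, 6.27, 11.6 and 12.6 TPM. Injured wild-type discs had 9.66, 16.3, 84.8 and 36.0 TPM and injured mutants 18.2, 47.1, 9.20, 16.3 and 15.2 TPM. The groups overlapped, with the same 3 libraries on top as for type IV collagen. The injury change was 1.41 ± 0.65 in wild-type and 0.98 ± 0.57 in mutant discs (limma adjusted p = 0.255 and 0.169), neither past the threshold. Without wild-type injured mouse 3 the former was 0.87, and without mutant injured mouse 2 the latter was 0.65. The correlation of Col18a1 with Col4a1 over the libraries was 0.92, and 0.87 after removal of group means.

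Col15a1, the other multiplexin, was abundant and had the opposite sign. It lies on chr4:47208161-47313167, plus strand (ENSMUSG00000028339). It measured 312, 507 and 285 TPM in intact wild-type and 363, 286, 443 and 353 TPM in intact mutant discs. Injured wild-type discs had 227, 208, 264 and 306 TPM and injured mutants 179, 162, 360, 286 and 276 TPM. The groups overlapped in both genotypes. The changes were -0.52 ± 0.29 in wild-type and -0.56 ± 0.25 in mutant discs (limma adjusted p = 0.333 and 0.0838). Without wild-type intact mouse 2, the highest of all, the wild-type change was -0.26. In mutants the change passed without mutant injured mouse 3 (-0.70, adjusted p = 0.0362; range over the alternatives 0.0214 to 0.377).

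The ratio of Col18a1 to Col15a1 was 0.0193 to 0.0364 in intact wild-type and 0.0171 to 0.0357 in intact mutant mice. It was 0.0426 to 0.321 in injured wild-type and 0.0256 to 0.291 in injured mutant mice. The wild-type ranges were apart and the mutant ranges overlapped, without a test. Correlation between the 2 genes was -0.44 over all libraries and -0.11 after removal of group means. Within groups Col15a1 went instead with type VI collagen: its correlation with Col6a3 was -0.25 over all libraries and 0.75 after removal of group means.

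Other pericellular and basement membrane collagen chains were low, apart from Col10a1, with a mean of 24.0 TPM in intact wild-type discs. Of Col4a3, Col4a4, Col4a5, Col4a6, Col6a4, Col6a5, Col6a6, Col10a1 and Col28a1, 4 of 9 reached the filter. In injured mutants 2 of these 4 fell and none rose. Counts for this and the following lists stand beside 13.1% of all tested genes called upward and 17.7% called downward in that comparison, with a median change of -0.08. Col4a5, a chain of specialised basement membranes, went from 4.08 ± 1.27 (SD, n = 4) to 1.41 ± 0.47 TPM (SD, n = 5), a change of -1.06 ± 0.32 (limma adjusted p = 0.0206). Col10a1, the short-chain collagen of hypertrophic cartilage, went from 27.3 ± 10.5 to 14.9 ± 2.39 TPM, a change of -0.78 ± 0.26 (0.0253). Both calls ended when single mice were left out: that of Col4a5 without mutant intact mouse 1, 2 or 4 (adjusted p = 0.0503 to 0.0635), and that of Col10a1 without mutant intact mouse 3 or mutant injured mouse 3 (0.0597 to 0.083).

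Basement membrane partners went in both directions in injured mutants. Of 22 laminin, nidogen, perlecan, agrin and related genes 18 were tested; 4 rose, 8 fell and 6 did not pass, with a median change of -0.51. The laminin chain gene Lamb1 rose from 0.916 ± 0.447 to 9.09 ± 8.32 TPM (2.07 ± 0.73; limma adjusted p = 0.0307). Nid1, whose product links laminin to type IV collagen, rose from 9.38 ± 1.6 to 37.3 ± 20.04 TPM (1.74 ± 0.57; 0.0208). Lamb3 fell from 18.7 ± 7.49 to 5.71 ± 4.39 TPM (-1.76 ± 0.52; 0.0132). Agrn, the heparan sulphate proteoglycan agrin, fell from 116 ± 9.91 to 41.6 ± 8.13 TPM (-1.47 ± 0.23; 0.000563). Agrn passed in all 29 alternatives. The count of 12 called partners was 6 without mutant intact mouse 2. Without that mouse Nid1 had an adjusted p of 0.0533, and Lamb1 had 0.0505 to 0.0763 without mutant intact mouse 2, 3 or 4 or mutant injured mouse 1 or 2. The call of Lamb1 also ended with voom.

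Of 11 genes of collagen and other matrix receptors tested 6 fell in injured mutants, none rose and 5 did not pass. Their median change was -0.38. Itga11 fell from 21.5 ± 4.98 to 6.21 ± 3.20 TPM (-1.74 ± 0.35; limma adjusted p = 0.0021), and Itga1, whose integrin binds type IV collagen, from 71.1 ± 37.8 to 24.2 ± 16.8 TPM (-1.68 ± 0.61; 0.0323). The others that fell were Itga10, Ddr1, Ddr2 and Dag1, the genes of a cartilage integrin chain, the discoidin domain receptors and dystroglycan. The call of Itga1 ended without mutant intact mouse 1, 2 or 4 or mutant injured mouse 1 or 3 (adjusted p = 0.0606 to 0.1), and that of Ddr1 without mutant intact mouse 1 or mutant injured mouse 1 (0.0518 to 0.054).

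Among 18 assembly enzymes and chaperones 3 rose and 4 fell in injured mutants. Loxl2, a lysyl oxidase, rose from 124 ± 25 to 248 ± 70.5 TPM (0.96 ± 0.22; limma adjusted p = 0.00432), and Plod3, a lysyl hydroxylase, from 88.4 ± 2.37 to 167 ± 25.3 TPM (0.90 ± 0.18; 0.0021). P4ha3, a prolyl hydroxylase subunit, fell from 191 ± 54.5 to 64.6 ± 43.1 TPM (-1.76 ± 0.42; 0.00406), and Crtap, of the prolyl 3-hydroxylase complex, from 320.2 ± 6.43 to 185 ± 21.9 TPM (-0.80 ± 0.11; 0.000629). The third that rose was Pxdn, the gene of peroxidasin, which crosslinks type IV collagen. Crtap passed in all 29 alternatives and P4ha3, Plod3 and Loxl2 in at least 27.

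Of 12 proteases known to cut these collagens 10 were tested; 4 rose in injured mutants, none fell and 6 did not pass, with a median change of 1.6. Mmp3 (stromelysin) rose from 76.0 ± 8.96 to 6910 ± 5666 TPM (5.99 ± 1.25; limma adjusted p = 0.00202). Ctss (cathepsin S) rose from 11.3 ± 8.58 to 576 ± 447 TPM (5.49 ± 0.99; 0.00101). Mmp12 and Ctsl also rose, the latter with adjusted p = 0.0542 to 0.0846 without any 1 of the intact mutants or mutant injured mouse 2 or 3. Mmp12, at a mean of 0.166 TPM in intact mutants, lost its call with voom. No call of this list held with prefix M only. Macrophage markers were higher in the same discs (5 of 7 called upward, sums of 128 to 194 TPM in intact and 665 to 6988 TPM in injured mutants). Lyz2 made up 5547 of the 6988 TPM in the highest mouse. Neutrophil markers summed to 0.337 to 1.24 TPM in intact and 5.88 to 656 TPM in injured mutants. Of 4 tested, 3 were called upward by limma (13.1% of all tested genes) and 0 by voom. The part of either cell type in these rises was not tested.

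For comparison 2 of 8 fibrillar collagen genes rose in injured mutants and none fell: Col3a1 from 73.8 ± 21.7 to 378 ± 240 TPM (2.15 ± 0.75; limma adjusted p = 0.027) and Col5a2 from 84.3 ± 8.51 to 199 ± 63.4 TPM (1.18 ± 0.41; 0.0271). Neither passed without mutant intact mouse 2 or 4 or mutant injured mouse 1 or 2, nor Col5a2 without mutant intact mouse 3 (adjusted p = 0.0589 to 0.074 for Col3a1 and 0.0526 to 0.0658 for Col5a2).

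No gene of these 6 lists passed in wild-type injury, between intact genotypes or for the genotype difference in the injury effect, by limma or by voom. In wild-type injury the counts at an unadjusted p under 0.05 were 8 of 18 partners, 6 of 18 assembly genes, 6 of 10 proteases, 4 of 8 fibrillar chains, 1 of 11 receptors and 0 of 4 other chains, against 17.2% of all tested genes. Between injured genotypes limma called 2 genes, both lower in mutants (0.728% of all genes were called lower): Agrn (-1.04 ± 0.23; limma adjusted p = 0.0377), at 90.3 ± 30.9 TPM in wild-type and 41.6 ± 8.13 TPM in mutant discs, and Crtap (-0.61 ± 0.11; 0.0337), at 283 ± 49.2 and 185 ± 21.9 TPM. They passed in 10 and 15 of 29 alternatives, and the calls ended in 12 and 10 of the 16 fits that left out 1 mouse (adjusted p = 0.0534 to 0.153 for Agrn and 0.0502 to 0.133 for Crtap). Voom on the implied reads called 5 genes of these lists there, all lower in mutants: Agrn, Crtap, Col4a5, Itga10 and Itga11. Over all genes voom called 558 of 24100 in that comparison, and only 16.1% of those were higher in mutants. Col4a5 and Itga11 lay close to the threshold (voom adjusted p = 0.049 and 0.0465).

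The genes whose levels went most closely with each member were taken as the 3 of 15854 genes with the highest Pearson correlation over the 16 libraries, which share groups and injury state; no p is given. For Col4a1 they were Mmp2, Mmrn2 and Selp (0.95 each), and for Col18a1 C1qtnf6, U2af2 and Pecam1 (0.95, 0.94 and 0.93). For Col6a1 they were Anxa8, Sqle and Ank (0.96, 0.96 and 0.94), and for Col6a2 Anxa8, Sqle and Dok4 (0.95, 0.94 and 0.93). For Col6a3 they were Emilin1, Runx1 and Cnnm4 (0.98, 0.97 and 0.97), different from those of its partner chains. For Col8a2 they were Meox1, Ctsf and Cdc42ep1 (0.97 or 0.98), falling to 0.77, 0.85 and 0.77 after removal of group means. Col8a1 went with Col5a2 (0.91), Col15a1 with Zbtb7c (0.92) and Col4a2 with Tspan9 (0.86). The most negative correlation between members was that of Col6a3 with Col8a2, at -0.91 over all libraries and -0.54 after removal of group means.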

How the data were processed

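The authors deposited 1 table of TPM values for 49315 genes and 16 libraries (rRNA depletion; GRCm38 and bcl2fastq 2.20, per the submitters' processing notes). Aligner, counter, annotation and use of strand are not given in the sources used here. Groups came from the titles. The 24188 genes that reached 1 TPM in 3 or more libraries were fitted, over all 16 libraries, with limma 3.58.1 (R 4.3.3; eBayes with trend) on log2(TPM + 1), 1 mean per group, with Benjamini-Hochberg adjustment per comparison; the script was tested on simulated data. With GENCODE M21 exon lengths (99.5% of identifiers matched) 94.1 to 94.9% of values under 20 reads were within 0.05 of a whole read, which gave the depth and the voom alternative. Ratios, marker sums and correlations are descriptions. From each list of related genes at most 4 called in injured mutants were named, the 2 largest rises and the 2 largest falls; other names give the rest of a small count. The members were taken by symbol and not by level. Members, lists and tests were nonetheless chosen with earlier results of these data known. Promoters came from RefSeq (9 of 9 members matched, 11 windows).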

Additional observations from a re-analysis of the deposited data

Results flagged for a closer look

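Col4a1 in injured mutants had 1 library far from the others: mutant injured mouse 2 measured 103 TPM, the other 4 injured mutants 27.1 to 37.9 TPM, and the gap was 0.752 of the range, above Dixon's critical value of 0.71 for 5 samples. In all, 27 groups of 4 or 5 mice were examined, and chance marks about 1 in 20 groups. The same library had the highest endothelial marker sum of the injured mutants, at 92.0 TPM. Whether the 2 are linked was not tested.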

How the results depend on the processing

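The 29 alternatives changed 1 choice each; voom on the implied reads and the fits by name prefix were chosen after seeing the data. None of the 9 members passed in wild-type injury, between intact genotypes or for the difference between injury effects under any of them. In mutant injury the count of 2 became 4 with quantile normalization, limma sample weights and voom, and 1 with prefix A8 only. Over all genes 7179 of 24188 passed there with quantile normalization and 8559 of 24188 with sample weights. With voom 7817 of 24100 passed, and with prefix A8 only 3583 of 24188. Leaving out 1 mouse gave 2 to 4 members. Between injured genotypes the count of 1 became 0 in a fit of only the compared groups, with the replicate block and with prefix A8 only, and leaving out 1 mouse gave 0 to 1. The replicate block rests on mouse numbers alone: same-numbered libraries had correlations of -0.217 to 0.151 over 21 pairs (median -0.028; 0.008 for different numbers), and with the block Col8a2 between injured genotypes was -1.23 (adjusted p = 0.0846; 0.00661 to 0.216 over the alternatives). Col18a1 between intact genotypes, -0.10, turned to 0.33 with prefix M only and ran from -0.255 to 0.049 when 1 mouse was left out. The cause of these changes was not tested. Of 45 member changes 14 changed sign under some alternative, none of them in either injury comparison, and 1208 of 1296 values kept sign and call. Over all genes the counts ran from 2 to 452 around 28 in wild-type injury, from 725 to 8559 around 7438 in mutant injury, from 1 to 8 around 4 between intact genotypes, from 2 to 2253 around 222 between injured genotypes, and from 0 to 15 around 0 for the difference. Every member had at least 108 implied reads in each library. With prefix M only the counts of called partners and receptors in mutant injury fell from 12 to 2 and from 6 to 0. Over all genes 725 were called in mutant injury with prefix M only and 3583 with prefix A8 only. The cause of this difference was not tested.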
